A study of Homo sapiens with 12 samples.

Results

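Feedback genes of the TGF-β and BMP pathways were followed in ovarian cancer cells treated with THZ1, a covalent inhibitor of the transcriptional kinases CDK7, CDK12 and CDK13. They are ID1, ID2, ID3, ID4, SMAD6, SMAD7, SKIL, TGIF1, TGIF2 and BAMBI, taken by exact name from the expression tables. All 10 of 10 were found among 23713 rows, and all 10 were among the 14251 active genes, meaning genes above 1 FPKM (a read number scaled to transcript length and to library size) in at least 1 of 12 libraries. The lines were KURAMOCHI and COV362, both human ovarian cancer lines, left untransduced. Each was given DMSO (the vehicle), 50 nM THZ1 or 250 nM THZ1 for 6 hr, with 2 biological replicates per group. KURAMOCHI was grown in RPMI and COV362 in DMEM, so line and medium cannot be told apart. RNA amounts were matched by cell count, ERCC control RNAs were added, and the deposited FPKM values are relative to these controls. In a bulk library, fewer cells with a message and less of it in each cell cannot be told apart.

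Members of the TGF-β superfamily bind pairs of serine/threonine kinase receptors, which phosphorylate receptor SMADs. The activated SMADs join SMAD4, enter the nucleus and regulate transcription. Several of the genes they induce act back on the pathway. BMP signals induce ID genes, whose products bind E proteins (basic helix-loop-helix activators) and keep them off DNA. SMAD6 and SMAD7 are inhibitory SMADs that block receptors or recruit ubiquitin ligases to them. SKIL, which encodes SnoN, and TGIF1 and TGIF2 encode corepressors of SMAD complexes. BAMBI is a receptor-like protein without a kinase domain that interferes with receptor signalling. Messages of such induced regulators are often short-lived.

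At 250 nM, 9 of the 10 genes fell in KURAMOCHI and 8 of 10 in COV362 on the spike-in scale, where 68.6% and 84% of all active genes were called lower, and the COV362 count lies below that share. When the libraries were scaled to their own RNA in 2 ways, 7 and 8 genes were called lower in KURAMOCHI, beside 1654 and 2708 of the 14251 active genes, and 3 and 4 in COV362, beside 1611 and 2694. ID3 and SMAD7 changed sign in COV362 under both. TGIF1, BAMBI and SMAD6 kept at most 12.9% of their DMSO mean in both lines on the spike-in scale. ID2 rose at 50 nM in KURAMOCHI, and at 250 nM it was not called in either line on the spike-in scale and called higher in both under these scalings. ID1 fell to 10.5% of its DMSO mean in KURAMOCHI, whereas it stood at 70.6% in COV362, was not called there on the spike-in scale and was called higher with both of these scalings.

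The stretches just upstream of the transcription start are shown for the 4 ID genes, which differed among themselves, and for SMAD6, which carries a palindromic SMAD-binding element. They are the 100 bases before the start in RefSeq on build GRCh38.p14, written 5′ to 3′ on the coding strand. Capitals mark TATAA, the core of a TATA box, in the ID genes and GTCTAGAC, the SMAD palindrome, in SMAD6. The positions are chr20:31605189-31605288 on the plus strand for ID1, chr2:8681956-8682055 on the plus strand for ID2, chr1:23559502-23559601 on the minus strand for ID3, chr6:19837270-19837369 on the plus strand for ID4 and chr15:66702136-66702235 on the plus strand for SMAD6.
ID1: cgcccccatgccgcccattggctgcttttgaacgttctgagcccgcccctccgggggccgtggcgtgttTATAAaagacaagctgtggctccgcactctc
ID2: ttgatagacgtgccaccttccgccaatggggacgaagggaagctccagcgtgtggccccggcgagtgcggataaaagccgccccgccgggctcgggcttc
ID3: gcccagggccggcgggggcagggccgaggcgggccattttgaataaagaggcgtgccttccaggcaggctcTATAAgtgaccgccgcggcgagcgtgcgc
ID4: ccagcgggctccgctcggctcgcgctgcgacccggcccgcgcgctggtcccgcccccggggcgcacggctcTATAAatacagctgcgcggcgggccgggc
SMAD6: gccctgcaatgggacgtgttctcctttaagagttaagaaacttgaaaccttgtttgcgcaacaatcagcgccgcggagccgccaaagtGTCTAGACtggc

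TATAA began 31 bases before the start in ID1 and 29 bases before it in ID3 and ID4, and it was not in the ID2 window. On the coding strand, 45 to 16 bases before the start, TATAA stood in 4.1% of 35116 RefSeq promoter windows. Of the 19 windows of the 10 genes, 4 had it there (ID1, ID3, ID4 and 1 of the 3 windows of SMAD7). GTCTAGAC, which reads the same on both strands, was found in the SMAD6 window and in no window of the other genes, and it was present in 0.202% of all 300-base windows (250 bases before to 50 after the start). It began 12 bases before the SMAD6 start. The half-element CAGAC, searched on both strands, was in 11 of the 19 windows, over 6 genes, and in 45.3% of all windows. GGCGCC, a GC-rich SMAD-binding sequence, was in 4 of the 19 windows, over 3 genes (SKIL, TGIF2 and BAMBI), and in 19.2% of all windows. GTCTAGAC contains no CAGAC on either strand, so these counts do not overlap. These matches describe the letters of the windows and were not tested against the changes in expression.

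On GRCh37, the build of the alignments, the ID genes are compact. ID1 lies on chromosome 20 at 30193086 to 30194318, ID2 on chromosome 2 at 8818975 to 8824591, ID3 on chromosome 1 at 23884417 to 23885992 and ID4 on chromosome 6 at 19837601 to 19842428. The inhibitory SMADs span longer stretches, SMAD6 on chromosome 15 at 66994574 to 67075187 and SMAD7 on chromosome 18 at 46446223 to 46477335. SKIL lies on chromosome 3 at 170075130 to 170114623, TGIF1 on chromosome 18 at 3411606 to 3459976, TGIF2 on chromosome 20 at 35201891 to 35222353 and BAMBI on chromosome 10 at 28966439 to 28971861. All are protein-coding genes, with ID3 and SMAD7 on the minus strand. The canonical GENCODE transcripts of the 10 genes had a median of 3 exons, against 9 exons over 12019 active coding genes with a usable canonical transcript. The median genomic span of these canonical transcripts was 7610 bp for the 10 genes and 27964 bp for the active coding genes. The 3′ UTR of 9 of the 10 genes held the AU-rich pentamer ATTTA, found in many unstable messages, as did 73.2% of the active coding genes. SKIL had 23 copies, BAMBI 5 and TGIF2 none.

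The libraries were checked before the comparisons. Replicates correlated at 0.968 to 0.983 (Pearson's r across active genes, which are not independent replicates). The ERCC rows lay within 0.0451 log2 units of their DMSO level in every library (median over 48 to 53 rows per line). The deposited values had been scaled to these same rows, so this closeness is built in and does not check library quality. In both lines 7 of 8 ovarian and epithelial markers were above 1 FPKM in both DMSO libraries, with MUC16 at 0.159 to 0.172 FPKM in KURAMOCHI and WT1 at 0.565 to 0.741 FPKM in COV362. None of 3 fibroblast markers reached 1 FPKM, with a highest value of 0.283 FPKM. Of 4 leukocyte markers only CD14 in KURAMOCHI did, at 1.19 and 1.43 FPKM, and PTPRC was at most 0.299 FPKM. Among 3 endothelial markers CDH5 was at 7.50 to 8.67 FPKM in the DMSO libraries of both lines and VWF at 2.36 to 2.97 FPKM in KURAMOCHI, while PECAM1 stayed at or below 0.378 FPKM. The number of reads behind each FPKM value is not known. No value of the 10 genes was at the floor, the lowest value that many rows share in a library, between 0.0783 and 0.119 FPKM.

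In DMSO, levels are given in FPKM, which is per length of transcript, as mean ± SD (n = 2). In KURAMOCHI, ID1 was the most abundant at 488 ± 18.3 FPKM, followed by ID3 at 250.4 ± 0.183 and ID4 at 37.2 ± 0.00849. TGIF1 (25.3 ± 2.76) and TGIF2 (23.8 ± 3.26) came next and their replicates overlapped, then ID2 (17.4 ± 1.99), SMAD6 (14.3 ± 0.213) and BAMBI (6.60 ± 0.575). SKIL (5.63 ± 0.311) and SMAD7 (4.56 ± 1.24) were lowest and overlapped. In COV362, ID1 again led at 165.8 ± 16.4 FPKM, followed by ID3 at 96.2 ± 3.30, TGIF1 at 60.4 ± 4.17, SMAD6 at 34.8 ± 1.62 and BAMBI at 22.5 ± 0.502. SKIL (15.4 ± 0.732), ID2 (14.9 ± 1.65), TGIF2 (13.3 ± 0.791) and SMAD7 (13.1 ± 0.819) followed, where each overlapped its neighbour but both SKIL libraries were above those of TGIF2 and SMAD7. ID4 was lowest at 8.87 ± 0.426 FPKM. The tables of the lines were normalized separately, so levels were not tested between lines.

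**Figure D1:**
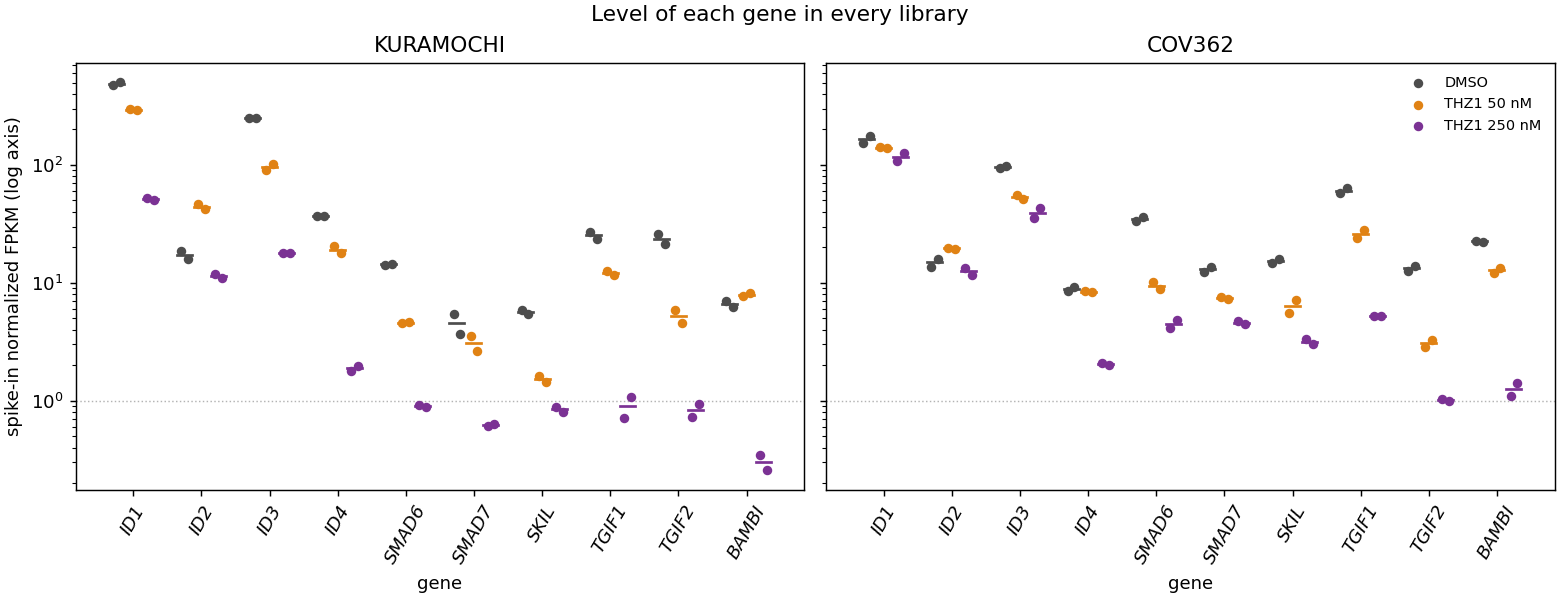
Spike-in normalized FPKM (log axis) of each gene in each library, with KURAMOCHI on the left and COV362 on the right; points are libraries, short lines are means of 2 and the dotted line is 1 FPKM. In KURAMOCHI at 250 nM the ID1 libraries sit at 50.5 and 52.1 FPKM, while BAMBI lies at 0.257 and 0.346 FPKM, and ID2 at 50 nM lies above its DMSO libraries in both lines.

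Changes were tested in each line with limma on log2(FPKM + 1), and a log2 fold change on this scale understates the change of genes near or below 1 FPKM. A gene was called when its Benjamini-Hochberg adjusted p over all active genes was below 0.001 and its log2 fold change was beyond 0.5 in either direction. For 1 gene taken alone, 2 libraries against 2 allow no smaller two-sided exact permutation p than 0.333. The 50 nM and 250 nM comparisons share their DMSO libraries, so they are not independent. The median over all active genes fell on the spike-in scale, and the background is therefore given beside each count. The median log2 fold change of all active genes was -0.40 at 50 nM and -1.11 at 250 nM in KURAMOCHI, and -0.85 and -1.31 in COV362. In addition, 2 other scalings were run, with equal library medians or with size factors from medians of ratios, and signs that turned or calls that were lost under them are given with the counts or the genes.

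At 50 nM in KURAMOCHI, 5 of the 10 genes fell (ID1, ID3, SMAD6, SKIL and TGIF2) and ID2 rose. Over all active genes 11.3% were called lower and 0.0842% called higher. The median log2 fold change of the 10 genes was -0.97. Both treated libraries were below both DMSO libraries for 8 of the 10 genes, as for 75.8% of active genes. None of the 5 lower calls and not the ID2 call remained when any 1 of the 6 KURAMOCHI libraries was left out, in fits that called 6 to 131 of all 14251 active genes lower against 1607 with all libraries. The log2 fold changes themselves moved little, between 1.20 and 1.42 for ID2 and between -1.46 and -1.29 for ID3. With equal medians no gene was called lower, with median of ratios TGIF2 alone was, beside 105 and 388 of the 14251 active genes, and ID2 was called higher under both, as were 16 and 74 active genes.

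At 250 nM in KURAMOCHI, 9 of the 10 genes fell, all but ID2, where 68.6% of active genes were called lower. With equal medians 7 of these calls remained, all but SMAD7 and SKIL, and with median of ratios 8, all but SMAD7, beside 1654 and 2708 of the 14251 active genes. The median log2 fold change of the 10 genes was -3.12, and 9 of the 10 lay below the median of all active genes. Between 250 nM and 50 nM, 8 of 10 fell, all but SMAD7 and SKIL, against a background of 36%, and with equal medians 5 did (ID1, ID4, TGIF1, TGIF2 and BAMBI). At 250 nM every gene had both treated libraries below both DMSO libraries, as did 95.9% of active genes.

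At 50 nM in COV362, 7 of the 10 genes fell (ID3, SMAD6, SMAD7, SKIL, TGIF1, TGIF2 and BAMBI), where 70.5% of active genes were called lower. None of the 10 was called lower with equal medians or median of ratios, beside 21 and 110 of the 14251 active genes. ID3, SMAD7 and BAMBI changed sign under both and TGIF1 under equal medians. The median of the 10 genes, -0.80, was close to that of all active genes, and only 4 of the 10 lay below it. With either DMSO library left out, 3 genes were called lower, in fits that called 6899 and 4314 of the 14251 active genes lower against 10042 with all libraries.

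At 250 nM in COV362, 8 of the 10 genes fell, all but ID1 and ID2, where 84% of active genes were called lower. TGIF1, TGIF2 and BAMBI were called lower under both other scalings, SMAD6 with median of ratios alone, and ID3 and SMAD7 changed sign under both. ID1 and ID2 were called higher under both, as were 3764 and 1221 of the 14251 active genes. The median was -1.84, and 7 of the 10 lay below the median of all active genes. Between 250 nM and 50 nM, 5 of 10 fell (ID4, SMAD6, TGIF1, TGIF2 and BAMBI), against a background of 24.4%, and 3 when either 250 nM library was left out (1692 and 1518 of all active genes, against 3474). With equal medians or median of ratios 3 fell, ID4, TGIF1 and BAMBI. Between doses the signs of ID1 (0.59 and 0.32) and ID3 (0.39 and 0.13) turned under both other scalings, and those of ID2 (0.19) and SMAD7 (0.14) under equal medians.

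**Figure D2:**
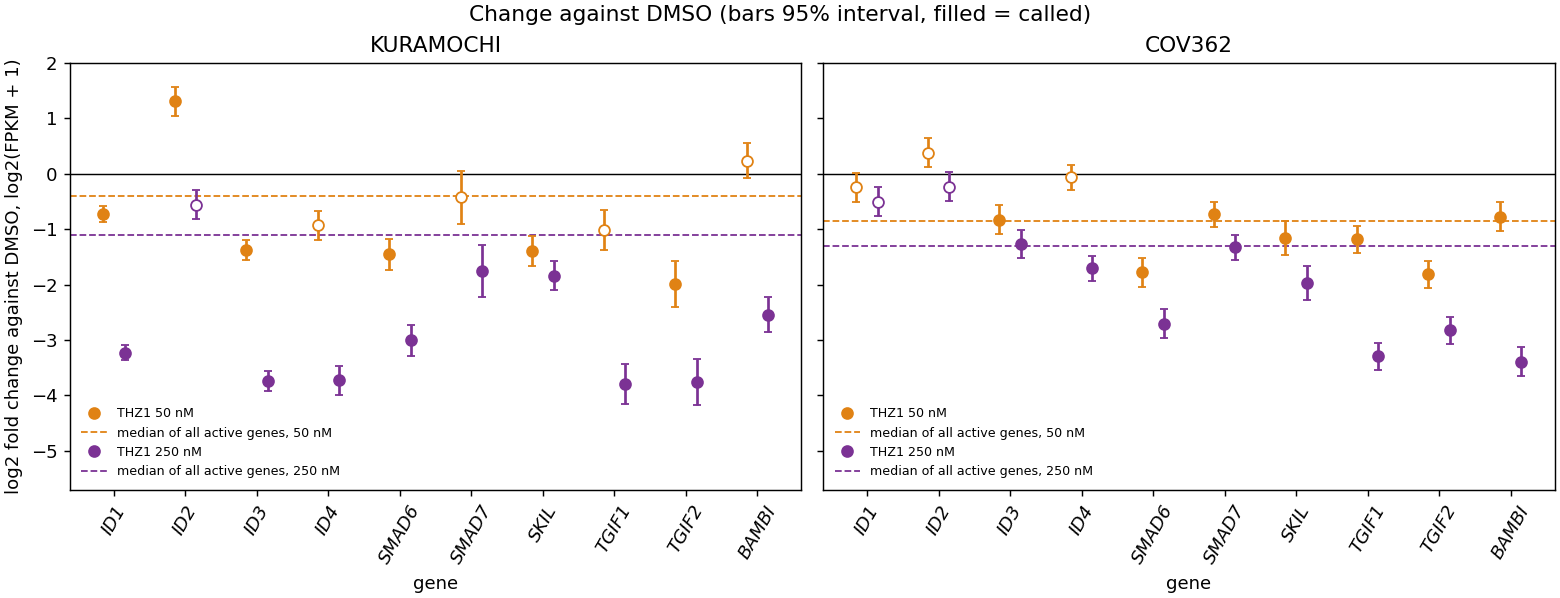
Log2 fold change against DMSO on the log2(FPKM + 1) scale for each gene at 50 nM and 250 nM, KURAMOCHI left and COV362 right; bars are 95% intervals, filled points were called and dashed lines are medians of active genes. ID2 at 50 nM in KURAMOCHI lies at 1.31, and in COV362 ID1 and ID2 at 250 nM are open points above the dashed line at -1.31; the signs of those 2 points turn under both other scalings.

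ID1 encodes an inhibitor of E proteins and is a direct BMP target. In KURAMOCHI it was at 475 and 501 FPKM in DMSO, 299 and 291 at 50 nM and 52.1 and 50.5 at 250 nM. The 3 groups did not overlap on the spike-in scale. The log2 fold change was -0.72 ± 0.057 (SE) at 50 nM (limma, Benjamini-Hochberg adjusted p = 0.00042) and -3.23 ± 0.057 at 250 nM (limma, adjusted p = 4.94e-06), and 2.52% of active genes had a lower value at 250 nM. The 50 nM value was -0.02 with equal medians and -0.17 with median of ratios, not called in either.

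In COV362, ID1 was at 154 and 177 FPKM in DMSO, 142 and 138 at 50 nM and 107 and 127 at 250 nM. Each dose group lay below DMSO without overlap, but by little. At 250 nM the log2 fold change was -0.50 ± 0.11 (limma, adjusted p = 0.00329), short of the call, and 89.0% of active genes had a lower value. Its sign turned under the other scalings, to 1.56 with equal medians (limma, adjusted p = 0.000135) and 1.10 with median of ratios (adjusted p = 0.000311), both called higher. At 50 nM (-0.24) it turned to 0.97 and 0.78, not called. Whether ID1 changed more in KURAMOCHI than in COV362 was not tested, since each line was fitted alone.

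ID2, which also restrains E proteins, rose at the low dose in KURAMOCHI. In KURAMOCHI it was at 18.8 and 15.9 FPKM in DMSO, 46.4 and 42.3 at 50 nM and 11.9 and 11.01 at 250 nM. The 50 nM libraries stood above DMSO and the 250 nM libraries below it, with no overlap. The log2 fold change at 50 nM was 1.31 ± 0.11 (limma, adjusted p = 0.000456), 1 of 12 active genes called higher in that comparison, and it stayed positive under both other scalings. At 250 nM it was -0.56 ± 0.11 (limma, adjusted p = 0.00271), which missed the call. It was called lower with a term for the replicate number (limma, adjusted p = 0.000689) or with an adjusted p threshold of 0.05. Under the other scalings it turned to 1.30 with equal medians and 0.80 with median of ratios, both called higher.

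In COV362, ID2 was at 13.7 and 16.1 FPKM in DMSO, 19.8 and 19.5 at 50 nM and 13.3 and 11.7 at 250 nM. The order of the groups was as in KURAMOCHI, with smaller differences. The log2 fold change was 0.38 ± 0.11 at 50 nM (limma, adjusted p = 0.0122) and -0.24 ± 0.11 at 250 nM (adjusted p = 0.0744), neither called, and the 250 nM value turned to 1.69 and 1.26 under the other scalings, both called higher. The 50 nM value stayed positive under both, and with median of ratios (1.33) it was called higher. At 50 nM 99.4% of active genes had a lower value, and in KURAMOCHI 99.6% did.

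ID3, another BMP-induced member, was at 250.3 and 250.5 FPKM in KURAMOCHI in DMSO, 90.4 and 102 at 50 nM and 17.8 and 17.9 at 250 nM. It fell at each dose with no overlap between groups, and the log2 fold changes were -1.37 ± 0.072 at 50 nM (limma, adjusted p = 0.000223) and -3.74 ± 0.072 at 250 nM (adjusted p = 4.94e-06). At 250 nM 7.12% of the DMSO mean was left.

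In COV362, ID3 was at 93.9 and 98.6 FPKM in DMSO, 56.1 and 51.6 at 50 nM and 35.8 and 43.1 at 250 nM. The groups again did not overlap. The log2 fold changes, -0.83 and -1.27, were called and lay 0.02 and 0.04 above the medians of all active genes, and they turned to 0.38 and 0.77 with equal medians and 0.19 and 0.32 with median of ratios.

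ID4, the last of the ID genes, was at 37.2 and 37.1 FPKM in KURAMOCHI in DMSO, 20.4 and 17.8 at 50 nM and 1.80 and 1.96 at 250 nM. The fall at 250 nM, a log2 fold change of -3.73 ± 0.11 (limma, adjusted p = 6.52e-06), left 5.06% of the DMSO mean, while the 50 nM value of -0.93 missed the call (adjusted p = 0.00109). In COV362 it was at 8.57 and 9.17 FPKM in DMSO, 8.52 and 8.35 at 50 nM and 2.07 and 1.995 at 250 nM. The 50 nM libraries lay just under DMSO, with a log2 fold change of -0.06 that turned to 0.99 and 0.83 under the other scalings. At 250 nM it fell by 1.70 ± 0.094 on the log2 scale (limma, adjusted p = 2.37e-06), but its value was -0.04 with equal medians and -0.41 with median of ratios, not called in either.

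The summed FPKM of the 4 ID genes was 793.1 ± 16.4 in DMSO in KURAMOCHI, 454.6 ± 2.60 at 50 nM and 82.4 ± 1.55 at 250 nM (mean ± SD, n = 2). In COV362 it was 285.8 ± 21.8, 221.9 ± 5.84 and 171.1 ± 17.6. In KURAMOCHI the sum stayed lower at 250 nM than in DMSO under both other scalings, whereas in COV362 it turned, from 131 and 136 in DMSO to 309 and 364 with equal medians. Shares within a library do not depend on linear scaling. ID2 made up 2.40% and 1.98% of the sum in DMSO in KURAMOCHI, 10.2% and 9.34% at 50 nM and 14.2% and 13.5% at 250 nM. In COV362 its share was 5.07% and 5.33%, then 8.75% and 8.94%, then 8.37% and 6.37%. ID3 moved the other way, from 32.0% and 31.1% to 21.3% and 22.0% in KURAMOCHI and from 34.7% and 32.7% to 22.6% and 23.5% in COV362 between DMSO and 250 nM. The ratio of ID1 to ID3 was 1.95 ± 0.0715 in DMSO and 2.88 ± 0.0740 at 250 nM in KURAMOCHI, and 1.72 ± 0.111 and 2.97 ± 0.0470 in COV362 (mean ± SD, n = 2).

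**Figure D3:**
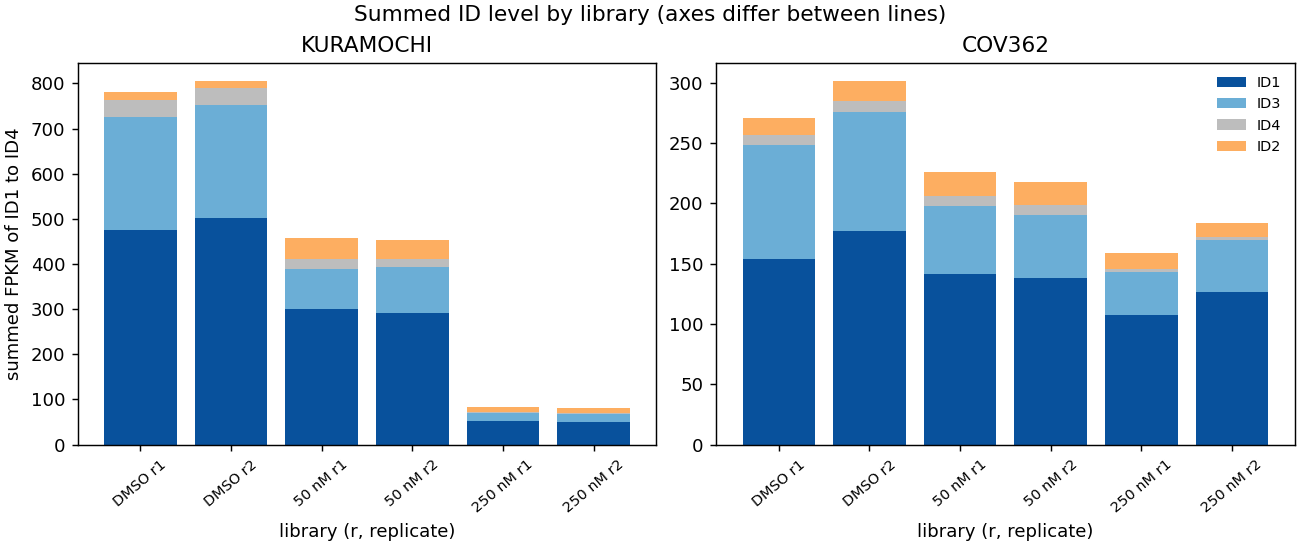
Summed FPKM of the 4 ID genes in each library, stacked by gene, with KURAMOCHI left and COV362 right on their own axes from 0. The sum is 781.5 and 804.8 in DMSO and 83.5 and 81.3 at 250 nM in KURAMOCHI, against 270.4 and 301.2 and then 158.6 and 183.5 in COV362 on the spike-in scale; the COV362 difference turns under both other scalings.

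SMAD6, an inhibitory SMAD that acts mainly on the BMP branch, fell in all 4 comparisons with DMSO on the spike-in scale. KURAMOCHI libraries had 14.2 and 14.5 FPKM in DMSO, 4.54 and 4.64 at 50 nM and 0.923 and 0.885 at 250 nM. In COV362 it was at 33.6 and 35.9, then 10.1 and 8.85, then 4.14 and 4.85. The groups were apart in both lines, with replicates closer than doses. The log2 fold changes at 50 nM were -1.45 ± 0.12 in KURAMOCHI (limma, adjusted p = 0.000434) and -1.78 ± 0.11 in COV362 (adjusted p = 2.25e-05). At 250 nM they were -3.01 ± 0.12 (limma, adjusted p = 7.97e-06) and -2.71 ± 0.11 (adjusted p = 9.96e-07). Under the other scalings neither 50 nM value was called, and the COV362 value at 250 nM was -0.81 with equal medians, not called, and -1.23 with median of ratios, called.

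SMAD7, which acts on both the TGF-β and BMP branches, had the largest SE of the 10 genes in KURAMOCHI. The KURAMOCHI libraries were at 5.44 and 3.67 FPKM in DMSO, 3.55 and 2.66 at 50 nM and 0.611 and 0.630 at 250 nM. Both 50 nM libraries lay below the lower DMSO library. The log2 fold change of -0.43 ± 0.19 was not called (limma, adjusted p = 0.105) and turned to 0.12 and 0.013 under the other scalings. The fall by 1.76 ± 0.19 at 250 nM was called (adjusted p = 0.000202). That call was lost with equal medians (-0.56), with median of ratios (-0.88), with no minimum FPKM (limma, adjusted p = 0.00121) and without either 250 nM library (adjusted p = 0.00185 and 0.00177).

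In COV362, SMAD7 was at 12.5 and 13.6 FPKM in DMSO, 7.65 and 7.29 at 50 nM and 4.72 and 4.49 at 250 nM. The groups did not overlap. The log2 fold changes, -0.73 and -1.33, were called and close to the medians of all active genes, and they turned to 0.37 and 0.50 with equal medians and 0.20 and 0.099 with median of ratios.

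SKIL encodes SnoN, which holds SMAD target genes in check and is degraded on TGF-β signalling. Its KURAMOCHI levels were 5.85 and 5.41 FPKM in DMSO, 1.61 and 1.44 at 50 nM and 0.892 and 0.808 at 250 nM. The step from 50 to 250 nM was not called (log2 fold change -0.45, limma, adjusted p = 0.0105) and turned to 0.27 with equal medians and 0.035 with median of ratios. In COV362 it was at 14.9 and 15.9, then 5.58 and 7.16, then 3.31 and 3.03. Its log2 fold changes at 50 nM were -1.39 ± 0.11 (limma, adjusted p = 0.000412) and -1.16 ± 0.13 (adjusted p = 0.000121), and at 250 nM they were -1.84 ± 0.11 in KURAMOCHI and -1.97 ± 0.13 in COV362. In COV362 the values became -0.05 and -0.22 at 50 nM and -0.18 and -0.58 at 250 nM under the other scalings, none of them called. In KURAMOCHI they became -0.79 and -0.91 at 50 nM, not called, and -0.52 (not called) and -0.87 (called) at 250 nM.

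TGIF1, a homeodomain corepressor, had the lowest mean log2 fold change of the 10 genes at 250 nM over both lines on the log2(FPKM + 1) scale, -3.54. In FPKM, BAMBI kept 4.57% and 5.54% of its DMSO mean, and the TGIF2 row kept 3.50% and 7.63%, without the readthrough row described with it. In KURAMOCHI TGIF1 was at 27.2 and 23.3 FPKM in DMSO, 12.5 and 11.6 at 50 nM and 0.719 and 1.07 at 250 nM. In COV362 it was at 57.5 and 63.4, then 24.2 and 28.0, then 5.28 and 5.26. Each dose lay clear of the one before. The 250 nM values were -3.80 ± 0.15 in KURAMOCHI (limma, adjusted p = 8.04e-06) and -3.29 ± 0.10 in COV362 (adjusted p = 8.16e-07), and 3.53% and 8.72% of the DMSO mean remained. At 50 nM the values were -1.01 in KURAMOCHI (adjusted p = 0.0025, not called) and -1.18 in COV362, called but turning to 0.012 with equal medians.

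TGIF2, its paralogue, fell in all 4 comparisons with DMSO on the spike-in scale, and at 250 nM under both other scalings. In KURAMOCHI it was at 26.1 and 21.5 FPKM in DMSO, 5.86 and 4.59 at 50 nM and 0.733 and 0.933 at 250 nM. In COV362 it was at 12.7 and 13.8, then 2.85 and 3.27, then 1.04 and 0.990. It was already far down at 50 nM, with log2 fold changes of -1.99 ± 0.17 in KURAMOCHI (limma, adjusted p = 0.000488) and -1.81 ± 0.10 in COV362 (adjusted p = 2.16e-05), where 1.65% and 3.50% of active genes had a lower value. Of these 50 nM calls, the KURAMOCHI call with median of ratios alone remained under the other scalings. At 250 nM they were -3.75 ± 0.17 and -2.82 ± 0.10. TGIF2 shares exons with a readthrough row that joins it to C20orf24, so reads could be split between them. That row was at 2.27 and 4.33 FPKM in DMSO in KURAMOCHI and at 0.139 and 0.153 in COV362, and at 250 nM it was at 1.89 and 0.681 and at 1.86 and 0.968, which makes the TGIF2 levels at 250 nM uncertain.

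BAMBI, the pseudoreceptor, was not called at 50 nM in KURAMOCHI and fell at 250 nM. Levels in KURAMOCHI were 7.01 and 6.19 FPKM in DMSO, 7.75 and 8.17 at 50 nM and 0.346 and 0.257 at 250 nM. The 50 nM libraries lay above DMSO by a log2 fold change of 0.24 ± 0.13, which was not called (limma, adjusted p = 0.156), and the gene fell by 2.54 ± 0.13 at 250 nM (adjusted p = 1.34e-05). Between 50 and 250 nM it fell by 2.78 ± 0.13 (limma, adjusted p = 5.14e-05), to 3.79% of the 50 nM mean.

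In COV362, BAMBI was at 22.9 and 22.1 FPKM in DMSO, 12.1 and 13.4 at 50 nM and 1.09 and 1.40 at 250 nM. Its log2 fold change was -0.78 ± 0.11 at 50 nM (limma, adjusted p = 0.000385), a called value that turned to 0.37 and 0.19 under the other scalings, and -3.39 ± 0.11 at 250 nM (adjusted p = 8.16e-07). Of all active genes 0.26% had a lower value between 50 and 250 nM.

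At 250 nM the order of levels had changed. In KURAMOCHI, ID1 (51.3 ± 1.13 FPKM), ID3 (17.8 ± 0.0658) and ID2 (11.4 ± 0.598) were the only genes above 2 FPKM, ID4 was at 1.88 ± 0.109, and SMAD6, TGIF1, SKIL and TGIF2 overlapped between 0.719 and 1.07 FPKM. In COV362, ID1, ID3 and ID2 also led, at 117 ± 13.5, 39.5 ± 5.19 and 12.5 ± 1.12 FPKM, with TGIF1 at 5.27 ± 0.0189 and the TGIF2 row lowest at 1.01 ± 0.0321, without the reads of its readthrough row. In KURAMOCHI ID2 thus moved from the sixth to the third place, and in COV362 it moved to the third place from levels that overlapped those of SKIL, TGIF2 and SMAD7. The order within a library does not depend on linear scaling.

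**Figure D4:**
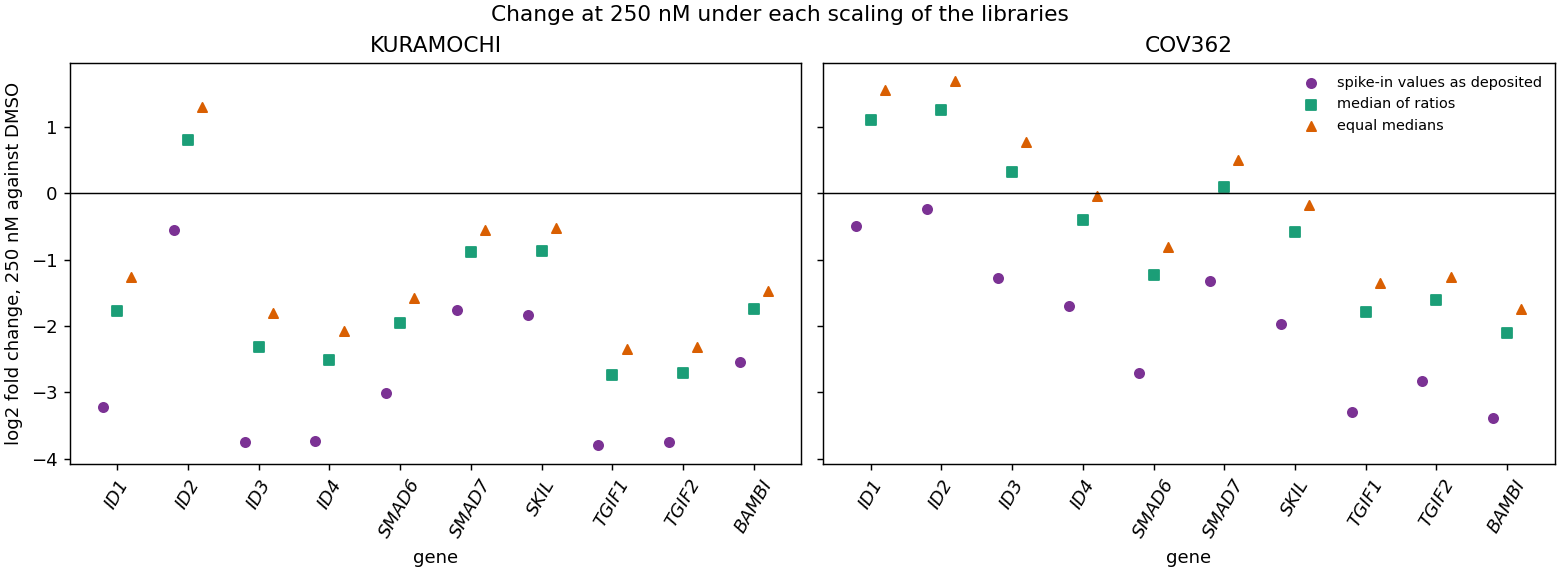
Log2 fold change at 250 nM against DMSO for each gene with the deposited spike-in values (circles), median-of-ratios scaling (squares) and equal medians (triangles), KURAMOCHI left and COV362 right. Under the 2 other scalings only ID2 (0.80 and 1.30) is above 0 in KURAMOCHI, while ID1, ID2, ID3 and SMAD7 are above 0 in COV362; the other genes stay below 0.

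The 2 ends of the range were compared with the rest of the transcriptome by the Euclidean distance over the 4 log2 fold changes against DMSO. Nearest to TGIF1 were MRFAP1L1 (distance 0.27), RNF25 (0.31) and PTRH2 (0.35). Nearest to ID2, the member with the highest mean at 250 nM (-0.40), were RND1 (0.49), NOS1AP (0.56) and MIRLET7DHG (0.60). In DMSO in KURAMOCHI and COV362, RND1 was at 0.815 and 0.864 FPKM and MIRLET7DHG at 0.487 and 1.06 FPKM. These distances are over 4 values that share DMSO libraries within a line.

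The other genes of the pathway gave the setting. Of 98 listed ligands, antagonists, receptors, SMADs, modulators, further targets, E proteins and corepressors, 79 were active. On the spike-in scale 6 of the 79 fell at 50 nM and 58 at 250 nM in KURAMOCHI, and 54 and 69 in COV362. These are 7.59%, 73.4%, 68.4% and 87.3% of the active listed genes, beside 11.3%, 68.6%, 70.5% and 84% of all active genes, with list medians of -0.29, -1.50, -0.88 and -1.48. At 50 nM none of the 79 was called in either direction under either other scaling in either line. With equal medians 105 of the 14251 active genes were lower and 16 higher in KURAMOCHI, and 21 and 12 in COV362. With median of ratios these were 388 and 74, and 110 and 20. At 250 nM the same lists had 13 lower and 13 higher in KURAMOCHI and 13 lower and 11 higher in COV362 with equal medians, and 20 lower and 7 higher and 22 lower and 6 higher with median of ratios. Over the 14251 active genes, 1654 were lower and 3831 higher in KURAMOCHI and 1611 and 3764 in COV362 with equal medians, and 2708 and 1577 and then 2694 and 1221 with median of ratios. Only JUNB, an AP-1 gene and TGF-β target named after its values were seen, was called higher on the spike-in scale, from 79.1 to 227.5 FPKM in COV362 between DMSO and 250 nM.

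Of the 14 active ligands, 8 fell at 250 nM in each line on the spike-in scale, and 1 was lower in KURAMOCHI and 3 in COV362 with equal medians, as many as with median of ratios. At that dose, spike-in counts by list are to be read beside the 68.6% of active genes called lower in KURAMOCHI and 84% in COV362. Lower counts with equal medians are to be read beside 1654 and 1611 of the 14251 active genes. Those with median of ratios are to be read beside 2708 and 2694. Values below are log2 fold changes at 250 nM, first in KURAMOCHI and then in COV362. BMP7, the most abundant ligand in DMSO in KURAMOCHI, was at -1.93 and -1.25, and BMP4 at -3.64 and -2.43. Of the 7 active extracellular antagonists, 4 fell in KURAMOCHI and 6 in COV362 on the spike-in scale, 0 and 1 were lower with equal medians and 1 and 2 with median of ratios, with NOG, a BMP trap, at -2.42 and -2.52. CHRDL1 was at -0.41 in KURAMOCHI, not called, and at -0.84 in COV362, called. Of the 11 active receptors, 7 fell in KURAMOCHI and 11 in COV362 on the spike-in scale, 0 and 1 were lower with equal medians and 3 and 5 with median of ratios, and TGFBR2, the type II TGF-β receptor, was at -2.22 and -2.51.

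All 6 signalling SMADs were active, and 6 fell in KURAMOCHI and 5 in COV362 at 250 nM on the spike-in scale, where 68.6% and 84% of active genes did. With equal medians 1 and 2 of them were called lower, and with median of ratios 1 and 4. SMAD1, a BMP receptor SMAD, was at -2.84 and -2.70, and SMAD3, a TGF-β receptor SMAD, at -1.30 and -2.20. Of the 12 SMAD modulators, 8 and 12 fell on the spike-in scale, 2 and 4 were lower with equal medians and 3 and 5 with median of ratios, with SKI, the relative of SKIL, at -2.87 and -2.93 and STRAP at -0.85 and -1.13. The 3 E-protein genes, partners of the ID proteins, all fell in both lines on the spike-in scale and none was called lower under either other scaling, with TCF3 at -1.60 and -1.01 and TCF12 at -1.63 and -1.81. Of the 7 general corepressors, 6 and 7 fell on the spike-in scale, 1 and 1 were lower with equal medians and 2 and 1 with median of ratios. SIN3A was at -2.61 and -3.17, while HDAC1, the most abundant of them in DMSO in KURAMOCHI, was at -0.19 in KURAMOCHI, not called, and at -0.73 in COV362, called. Of the 19 other active targets, 16 and 17 fell on the spike-in scale. With equal medians 8 and 1 were lower and 4 and 5 higher. With median of ratios 9 and 2 were lower and 2 and 3 higher. CYR61 was at -3.99 and -2.12 and VIM at -0.78 and -1.10. With equal medians, 2 and 2 ligands, 2 and 2 antagonists, 1 and 0 receptors, 2 and 1 modulators and 2 and 1 corepressors were higher. With median of ratios these were 1 and 1, 1 and 1, 0 and 0, 1 and 0, and 2 and 1. Of the 14251 active genes, 3831 and 3764 were higher with equal medians and 1577 and 1221 with median of ratios.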

How the data were processed

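RNA was sequenced from 12 libraries of 2 cell lines. The authors aligned single-end reads of a stranded poly(A) library kit to hg19 with HISAT, made FPKM values with Cufflinks and Cuffnorm, scaled them to ERCC spike-ins and deposited 1 FPKM table per line. Tool versions are not given in the sources used here. The tables hold no read counts, so depth is unknown, and 0 per-sample columns were left unused. Groups came from the sample titles. From these values, log2(FPKM + 1) was fitted per line with limma 3.58.1 in R 4.3.3 (3 groups, empirical Bayes with a mean-variance trend), after ERCC rows were removed and genes above 1 FPKM in at least 1 library were kept. The fitting was tested on simulated data. The 10 genes and the pathway lists were chosen with earlier results of these data known. All 10 genes were named, and each list gave its most abundant gene in DMSO and its largest fall at 250 nM. Both were picked by means over the 2 lines, so another gene can rank first within 1 line. For the genes with the lowest and highest mean at 250 nM, the 3 nearest genes were named. Alternatives were a pseudocount of 0.1, no minimum FPKM, 2 other scalings, a replicate block, an adjusted p of 0.05, no trend, and leaving out each library. Gene positions and transcripts came from GENCODE v44 lifted to GRCh37, promoters from RefSeq on GRCh38.p14, with Python 3.11.15. Replicates were labelled biological duplicates.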

Additional observations from a re-analysis of the deposited data

Results flagged for a closer look

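BAMBI at 50 nM moved in opposite directions in the 2 lines on the spike-in scale. In KURAMOCHI both treated libraries lay above both DMSO libraries, with a log2 fold change of 0.24 that was not called. In COV362 both lay below both DMSO libraries, with a log2 fold change of -0.78 that was called. The difference between the lines was not tested, since each line was fitted alone. The COV362 value turned to 0.37 with equal medians and 0.19 with median-of-ratios scaling, so the opposite directions were seen on the spike-in scale alone.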

How the results depend on the processing

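The count of 9 genes lower at 250 nM in KURAMOCHI stayed within 7 to 10 under every alternative run on all libraries. The active genes called lower there ran from 1654 of 14251 with equal medians to 11587 with an adjusted p of 0.05. With no minimum FPKM, the 5 genes lower and the 1 higher at 50 nM in KURAMOCHI became 0 and 0, where 3 and 0 of all 23621 genes were called, and the 5 lower between doses in COV362 became 3, where 2127 of 23621 were. With equal medians, the genes lower became 0 at 50 nM in KURAMOCHI, 5 of 8 between its doses, 0 of 7 at 50 nM in COV362, 3 of 8 at 250 nM and 3 of 5 between its doses, while 1 gene was called higher at 250 nM in KURAMOCHI and 2 in COV362. In these 5 comparisons 105, 934, 21, 1611 and 706 of the 14251 active genes were called lower, and at 250 nM 3831 were called higher in KURAMOCHI and 3764 in COV362. With median-of-ratios scaling, these were 1, 0, 4 and 3 genes lower in the 4 comparisons of KURAMOCHI at 50 nM and COV362 at 50 nM, at 250 nM and between doses, with 1 gene higher at 250 nM in KURAMOCHI, 1 at 50 nM in COV362 and 2 at 250 nM. The active genes called lower in those 4 comparisons were 388, 110, 2694 and 1129, and those called higher in the last 3 were 1577, 20 and 1221. With an adjusted p of 0.05, 8 genes fell between doses in COV362, as did 5909 active genes. With the replicate block, 2 genes fell at 50 nM in KURAMOCHI, 4 at 50 nM in COV362 and 3 between its doses, beside 989, 7266 and 1130 active genes. That block also called ID2 lower at 250 nM in KURAMOCHI (limma, adjusted p = 0.000689), beside 9485 active genes. Deviations of samples with the same number correlated at -0.0703 to 0.0282, so the numbers do not show a pairing. Leaving out 1 library gave 0 to 0 genes lower and 0 to 0 higher at 50 nM in KURAMOCHI, 3 to 7 lower at 50 nM in COV362 and 3 to 6 between its doses, with the lone library of a group assumed to vary like the other groups.

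Against DMSO, the signs that turned under equal medians and median-of-ratios scaling were, at 250 nM in COV362, ID1 (1.56 and 1.10), ID2 (1.69 and 1.26), ID3 (0.77 and 0.32) and SMAD7 (0.50 and 0.099). At 50 nM in COV362 they were ID1 (0.97 and 0.78), ID3 (0.38 and 0.19), ID4 (0.99 and 0.83), SMAD7 (0.37 and 0.20), BAMBI (0.37 and 0.19) and TGIF1 (0.012, equal medians). In KURAMOCHI they were ID2 at 250 nM (1.30 and 0.80) and SMAD7 at 50 nM (0.12 and 0.013). Between doses they were SKIL in KURAMOCHI (0.27 and 0.035) and, in COV362, ID1 (0.59 and 0.32), ID3 (0.39 and 0.13), ID2 (0.19, equal medians) and SMAD7 (0.14, equal medians). These scalings moved the median of all active genes at 250 nM from -1.11 to 0.29 and -0.00088 in KURAMOCHI and from -1.31 to 0.31 and 0.011 in COV362. The 2 replicates per group and the unknown depth limit the precision of values near or below 1 FPKM. The cause of the other changes in count was not tested.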
